A study of Mus musculus with 17 samples.

Results

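This is an account of 10 genes of cartilage in the stromal cells of mouse bone: the chondrocyte transcription factors Sox9, Sox5 and Sox6, and 7 genes of the cartilage matrix that are not collagens, Acan, Comp, Matn1, Matn3, Hapln1, Cnmd and Ucma. They were chosen by name, and all 10 were found among the 55335 genes of the count files. Every one passed the filter on low counts in osteoprogenitor cells (OPCs) and in skeletal stromal/stem cells (SSCs), Matn1 in SSCs only through the wild-type libraries.

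Chondrocytes build cartilage and, at the growth plate, the template on which long bones lengthen. SOX9 is required for the chondrocyte fate, and SOX5 and SOX6, which lack a transactivation domain of their own, help it to activate the genes of the matrix. Aggrecan (Acan) is the large proteoglycan that holds water in cartilage, link protein (Hapln1) fixes it to hyaluronan, and the matrilins (Matn1, Matn3) and cartilage oligomeric matrix protein (Comp) connect the components of the matrix. Chondromodulin (Cnmd) is a glycoprotein that keeps vessels out of cartilage, and Ucma is a secreted Gla protein of chondrocytes. Comp is also abundant in tendon and ligament.

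The study sequenced RNA of OPCs and SSCs sorted from the digested bone fraction of mice with a knock-in of the Cxcr4 1013 allele, which encodes a receptor truncated at its C-terminal tail that resists desensitization, as in the WHIM immunodeficiency. The genotypes were Cxcr4+/+ (WT), Cxcr4+/1013 (+/1013) and Cxcr4 1013/1013 (1013/1013), described as female littermates aged 8 to 12 weeks, and the allele was in every cell of the mutant mice. OPCs were gated as Sca-1-negative, CD51-positive and PDGFRα-positive or -negative, and SSCs as Sca-1-positive, CD51-positive and PDGFRα-positive, both without CD45, TER119 and CD31. Each library was a pool of 3000 cells from 3 mice, with 3 libraries a group and 2 for 1013/1013 SSCs, which makes 17. Counts on genes totalled 64099849 to 92683497 per OPC library and 44217695 to 50509592 per SSC library, and levels are given as CPM, the usual scaling of counts to the library total. The detection limit was set at 3 counts, or 0.0324 to 0.0468 CPM in OPCs and 0.0594 to 0.0678 CPM in SSCs, and it covers counting error only. Not every marker went with the sort labels. Ly6a, which encodes Sca-1, was at 0.453 to 11.8 CPM in the OPC and 529.7 to 1789 CPM in the SSC libraries. A set of 8 osteoblast markers summed to 93274 to 226755 CPM in OPCs and 2282 to 16663 CPM in SSCs. Itgav (CD51), selected in both cell types, had group means of 39.0 to 54.2 CPM in OPCs and 31.9 to 74.4 CPM in SSCs. Of the excluded markers, Ptprc (CD45) reached 101 CPM in 1013/1013 OPCs and 170 CPM in WT SSCs. Pecam1 (CD31) reached 41.3 CPM in +/1013 SSCs.

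On mm10, the factors are Sox9 (ENSMUSG00000000567.5, chr11:112782224-112787760, plus strand), Sox5 (ENSMUSG00000041540.16, chr6:143828425-144781977, minus strand) and Sox6 (ENSMUSG00000051910.13, chr7:115470872-116038796, minus strand). Acan (ENSMUSG00000030607.7) is at chr7:79053483-79115099, Comp (ENSMUSG00000031849.9) at chr8:70373558-70382066, Matn1 (ENSMUSG00000040533.7) at chr4:130944385-130955475, Matn3 (ENSMUSG00000020583.4) at chr12:8947929-8972028, Hapln1 (ENSMUSG00000021613.9) at chr13:89539796-89611652 and Ucma (ENSMUSG00000026668.10) at chr2:4976122-4985748, all on the plus strand, and Cnmd (ENSMUSG00000022025.13) at chr14:79637690-79662170 on the minus strand. Exons of Sox5 overlap the antisense gene Sox5os1, and whether counting used the strand is not given in the sources used here, so its counts are less certain.

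Acan, Matn1, Matn3 and Ucma were the members that passed the edgeR test between SSCs and OPCs in all 3 genotypes, and the 250 bases before their RefSeq starts are shown because they can be set against the factor genes of the same list. RefSeq windows (GRCm38.p6, the assembly of mm10) were found for 8 of the 10 genes, 13 windows in all, and not for Sox9 and Comp. The windows were searched on both strands for 3 SOX cores (the first written ACAAAG, the second ACAATG, the third AACAAT), the TATA box (written TATAAA), the CCAAT box (those letters) and the GC box (written GGGCGG), where SOX cores can overlap each other. Capitals mark a match on either strand, and adjoining matches can run together.
Acan, chr7:79052976-79053225, plus strand: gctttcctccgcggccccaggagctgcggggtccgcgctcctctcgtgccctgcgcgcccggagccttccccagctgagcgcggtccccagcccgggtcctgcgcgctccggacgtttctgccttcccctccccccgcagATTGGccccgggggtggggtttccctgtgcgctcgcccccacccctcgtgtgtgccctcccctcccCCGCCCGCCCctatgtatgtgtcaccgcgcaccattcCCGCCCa
Matn1, chr4:130944135-130944384, plus strand: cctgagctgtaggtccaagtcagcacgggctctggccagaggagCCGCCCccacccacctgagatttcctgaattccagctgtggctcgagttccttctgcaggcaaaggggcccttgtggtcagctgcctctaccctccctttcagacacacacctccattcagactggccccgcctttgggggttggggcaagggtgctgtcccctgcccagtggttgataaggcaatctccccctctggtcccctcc
Matn3, chr12:8947679-8947928, plus strand: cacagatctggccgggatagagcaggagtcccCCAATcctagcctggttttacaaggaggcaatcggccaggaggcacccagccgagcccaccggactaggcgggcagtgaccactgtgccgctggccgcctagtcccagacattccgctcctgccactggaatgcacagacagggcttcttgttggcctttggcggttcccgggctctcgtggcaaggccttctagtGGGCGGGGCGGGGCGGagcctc
Ucma, chr2:4975872-4976121, plus strand: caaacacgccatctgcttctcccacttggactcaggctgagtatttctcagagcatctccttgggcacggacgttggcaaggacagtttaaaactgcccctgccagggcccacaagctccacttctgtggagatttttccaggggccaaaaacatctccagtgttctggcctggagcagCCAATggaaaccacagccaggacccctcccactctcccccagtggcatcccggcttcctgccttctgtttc
The Acan window held 1 CCAAT box and 3 GC boxes at 74.4% G and C, against a median of 52.4% over all 32851 windows of this length. Matn3 had the same motifs, 1 CCAAT box and 3 GC boxes, Matn1 had 1 GC box and Ucma 1 CCAAT box. No SOX core letters were in these 4 windows or in those of Hapln1 and Cnmd, while the Sox5 window had 1 and 5 of the 6 Sox6 windows had 1 or more. Over all windows, 29.59% held a SOX core, 33.85% a CCAAT box, 32.74% a GC box and 12.37% a TATA box. These are matches of letters in short windows and say nothing of binding, or of enhancers farther away.

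Levels of different genes are compared per kilobase of exon (CPM per kb). In OPCs of WT mice the order was Comp at 1423 ± 493 (SD, n = 3), Cnmd at 875 ± 447, Matn3 at 499.7 ± 302, Ucma at 119 ± 68.9, Acan at 109 ± 60.01, Hapln1 at 97.0 ± 48.1, Sox9 at 32.6 ± 12.54, Matn1 at 25.0 ± 18.1, Sox5 at 1.92 ± 0.855 and Sox6 at 0.554 ± 0.434. The libraries of neighbours in this order overlapped, except between Matn3 and Ucma, Hapln1 and Sox9, Matn1 and Sox5, and Sox5 and Sox6. In WT SSCs Comp stood alone at 3293 ± 728 CPM per kb, and Cnmd followed at 119 ± 144, Sox9 at 32.7 ± 17.6, Matn3 at 24.1 ± 26.7, Acan at 22.7 ± 17.001, Ucma at 14.8 ± 13.7 and Hapln1 at 11.3 ± 10.3, each overlapping the next. Sox5 was at 4.73 ± 0.884, Sox6 at 1.23 ± 0.0643 and Matn1 at 0.199 ± 0.178. Comp was first in 5 of the 6 groups, and in 1013/1013 OPCs it overlapped Cnmd.

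**Figure D1:**
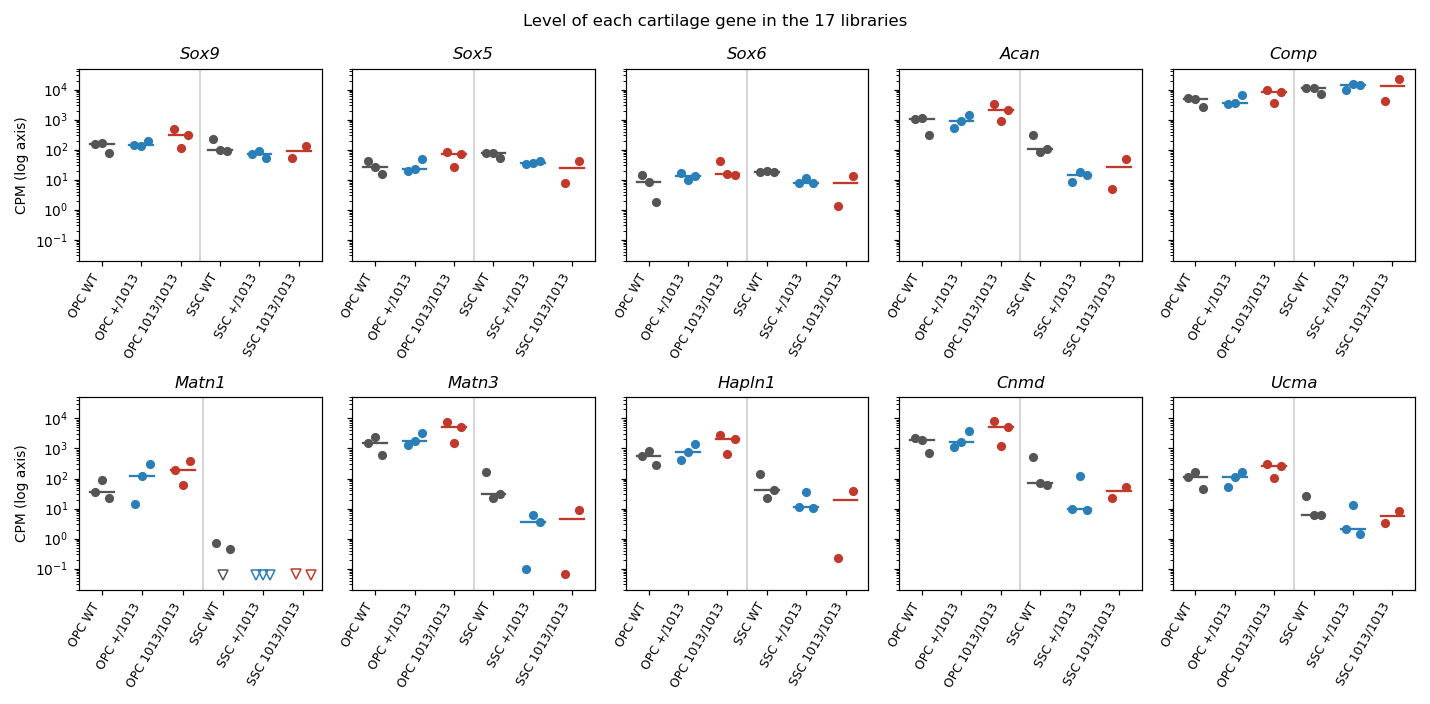
Each panel shows 1 gene, with CPM on a log axis and 1 point per library in the 6 groups; lines are group medians, and open triangles are libraries under 3 counts, drawn at the limit of 3 counts. The 6 matrix genes other than Comp lie lower in the SSC than in the OPC groups, while Comp lies between 2544 and 22253 CPM in all 17 libraries.

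Summed, the 10 genes made up 0.456% to 3.28% of an OPC library (median 1.10%) and 0.416% to 2.26% of an SSC library (median 1.20%), but not the same genes made up the sum. Comp was 30.3% to 55.8% of the members' counts in OPCs and 88.0% to 99.0% in SSCs. Without Comp, the other 9 genes held 0.202% to 2.28% of OPC counts and 0.00914% to 0.148% of SSC counts.

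**Figure D2:**
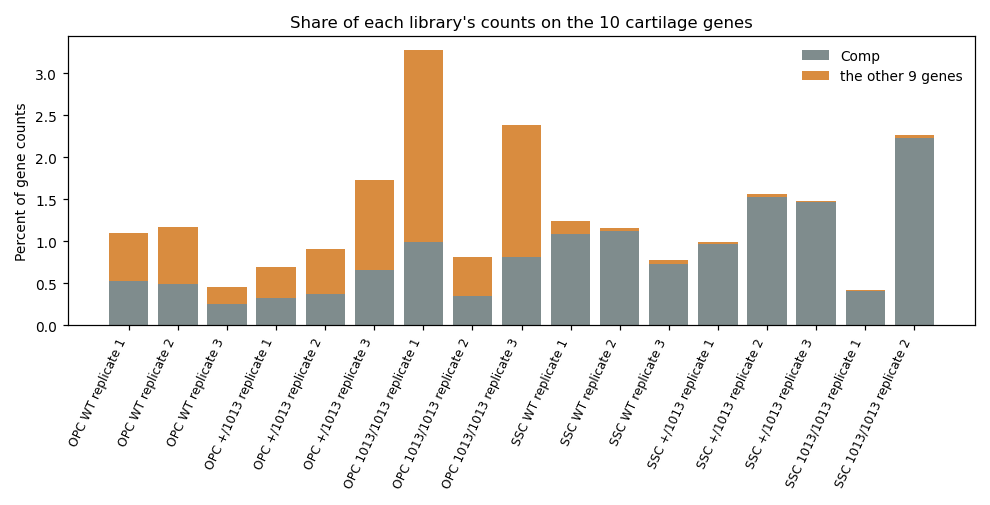
Bars give the percent of gene counts on Comp (grey) and on the other 9 genes (orange) in each library. The 9 genes reach 2.28% in 1013/1013 OPC replicate 1, and in the SSC libraries they are at most 0.148%.

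In OPCs, the question was whether the Cxcr4 1013 allele changes the level of these genes. Every one of the 10 was fitted higher in 1013/1013 than in WT OPCs, by a median of 1.32 on the log2 scale where the median of all genes was 0.01, but no member passed the test. For each member the groups overlapped, where 6.15% of all genes were higher without overlap, and 0 of 10 is near that share. Why no member passed was not tested. In bulk samples such as these, a different share of cells of a type and a different amount of RNA per cell cannot be told apart.

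Sox9 was measured at 158, 171 and 75.4 CPM in the WT, 147, 130.2 and 192 CPM in the +/1013, and 480.1, 112 and 306 CPM in the 1013/1013 OPC libraries. Replicates 1 and 3 of 1013/1013 stood above all other libraries, and replicate 2 was within the WT range. Sox5 was at 40.4, 26.3 and 15.9 CPM in WT, 19.7, 22.0 and 48.1 CPM in +/1013 and 84.0, 25.5 and 70.1 CPM in 1013/1013 libraries. Sox6, the least abundant factor, was at 14.7, 8.20 and 1.78 CPM, 17.1, 9.57 and 13.5 CPM, and 40.2, 14.9 and 14.4 CPM in these groups. The groups of each factor overlapped. The log2 fold changes of 1013/1013 against WT were 1.01 (SE 0.49) for Sox9, 1.00 (SE 0.55) for Sox5 and 1.37 (SE 0.64) for Sox6, and edgeR adjusted every one of their p-values to 1.00 over all genes.

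Acan, the proteoglycan core gene, was at 1013, 1125 and 299 CPM in WT, 521, 898 and 1431 CPM in +/1013 and 3410.0, 921 and 2107 CPM in 1013/1013 OPCs. Hapln1, its link protein, was at 583, 851 and 284 CPM, 413, 760.0 and 1435 CPM, and 2916, 674 and 2069 CPM. Both genes had the same library lowest, WT replicate 3, and the same library highest, 1013/1013 replicate 1. Hapln1 was the member nearest to the threshold, with a log2 fold change of 1.58 (SE 0.68) in 1013/1013 against WT and an unadjusted p of 0.047 (adjusted p = 1.00, edgeR), and Acan had 1.27 (SE 0.64). Matn3 was at 1523, 2407 and 589 CPM in WT, 1292, 1723 and 3237 CPM in +/1013 and 7398, 1574 and 5316 CPM in 1013/1013 libraries. Matn1 was at 35.7, 91.1 and 23.2 CPM, 14.3, 124 and 305 CPM, and 186, 62.2 and 394 CPM. Both matrilins again overlapped between the groups, and Matn1 spread 21.3-fold within the +/1013 group alone. Cnmd was at 2272, 1877 and 688 CPM in WT, 1158, 1610.3 and 3853 CPM in +/1013 and 8037, 1218 and 5109.8 CPM in 1013/1013 libraries. Ucma was at 108, 165 and 43.2 CPM, 53.4, 117 and 160.2 CPM, and 296, 101 and 261 CPM. Comp, the most abundant member, was at 5222, 4902 and 2544 CPM, 3261, 3701 and 6558 CPM, and 9917, 3452 and 8125 CPM. For these matrix genes too, replicates 1 and 3 of 1013/1013 were above every WT library and replicate 2 lay within the range of the WT group.

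Against WT, 1013/1013 OPCs had 0 of the 10 members called (edgeR quasi-likelihood test, adjusted p under 0.05 together with 1.5-fold or more). This test called 0.00617% of all genes, and 1 member was at an unadjusted p under 0.05. DESeq2 called 0 members and 0.383% of the genes to which it gave an adjusted p. The +/1013 OPCs had all 10 fitted higher by a median of 0.35 on the log2 scale, with 0 at an unadjusted p under 0.05. Against WT, edgeR called 0 members and 0% of all genes, and DESeq2 called 0 members and 0.328%. These 10 directions in +/1013 OPCs did not last: without +/1013 replicate 3, 8 of the 10 were fitted lower than in WT. Between the mutant groups, 1013/1013 against +/1013, all 10 were fitted higher, with 0 at an unadjusted p under 0.05. Here edgeR called 0 members and 0% of all genes, and DESeq2 called 0 members and 0.427%. The comparisons share libraries and are not independent of each other.

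In OPCs the members moved together from library to library. Replicate 1 of 1013/1013 was the highest of the 9 OPC libraries for 9 of the 10 genes, with Matn1 highest in 1013/1013 replicate 3, and WT replicate 3 was the lowest for 9, with Matn1 lowest in +/1013 replicate 1. The pooled within-group SD of log2(CPM + 0.5) was 0.65 for Comp, 0.74 for Sox9, 0.76 for Sox5 and between 0.88 and 1.11 for 6 others, and it was 1.61 for Matn1, where the median of all 16207 genes was 0.47. Against genes of a mean above 10 CPM, the members' SDs lay between percentiles 81.9 (Comp) and 98.2 (Matn1). Other values moved with these libraries. The 5 cartilage collagens that mark chondrocytes (Col2a1, Col9a1, Col9a2, Col11a2, Col10a1), all 5 detected in every OPC library, summed to 11632 to 35632 CPM in WT, 12125 to 46896 CPM in +/1013 and 26682 to 80005 CPM in 1013/1013 OPCs, lowest in WT replicate 3 and highest in 1013/1013 replicate 1. The 8 osteoblast markers had their lowest sum, 93274 CPM, in 1013/1013 replicate 1. The 10 leukocyte and erythroid markers, 9 or 10 of which had a count in each OPC library (Mpo was at 0 in 3), summed to 6968 CPM in WT replicate 3 and 9356 CPM in 1013/1013 replicate 2, and to between 36.8 and 696 CPM in the other 7. Without those 2 libraries all 10 members were still fitted higher in 1013/1013 than in WT OPCs, by 0.73 (Comp) to 2.12 (Matn1) on the log2 scale, with 0 called. The part of cell content in these differences was not tested.

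**Figure D3:**
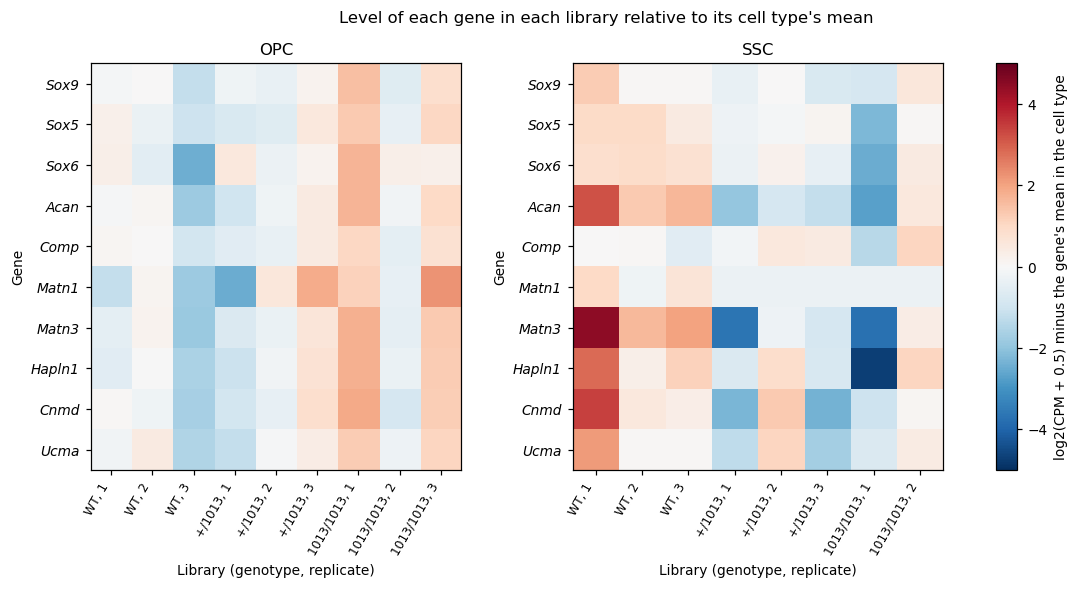
Colours give each library's log2(CPM + 0.5) minus the gene's mean over the libraries of its cell type, for the 10 genes (rows) in the 9 OPC and 8 SSC libraries (columns). In OPCs, WT replicate 3 is below and 1013/1013 replicate 1 above the mean for all 10 genes; in SSCs, the column of 1013/1013 replicate 1 is below it for all 10.

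In SSCs the fitted directions were the other way: 9 of the 10 members were lower in each mutant genotype than in WT, and Comp was higher. Matn1 is among the 9 and in the median that follows. It passed the filter only through the WT libraries, which fixed its direction. The median log2 fold change was -1.30 in +/1013 and -1.30 in 1013/1013, where the median of all genes was -0.11 and -0.23. No member was called in either comparison with edgeR.

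Acan was at 315, 84.6 and 108 CPM in WT SSCs, at 8.60, 18.6 and 14.5 CPM in +/1013, and at 4.79 and 49.1 CPM in 1013/1013 SSCs. All 5 mutant libraries were below the 3 WT libraries. The log2 fold change of +/1013 against WT was -3.37 (SE 0.93), with an unadjusted p of 0.0073 and an adjusted p of 0.164 (edgeR), and that of 1013/1013 was -2.34 (SE 1.04). Single libraries set these sizes: without WT replicate 1 the +/1013 value was -2.51, and the 1013/1013 value was -1.47 without 1013/1013 replicate 1, nearly the same without WT replicate 1, and -5.04 without 1013/1013 replicate 2. Matn3 was at 166, 22.9 and 29.6 CPM in WT, at 0.101, 5.90 and 3.70 CPM in +/1013, and at 0.0678 and 9.21 CPM in 1013/1013 libraries, again without overlap, and its log2 fold change in +/1013 was -4.24 (SE 1.80, unadjusted p = 0.047, edgeR), or -2.71 without WT replicate 1. Matn1, at 0.726, 0.0206 and 0.449 CPM in WT SSCs, was listed at 0 in all 5 mutant libraries, which makes it at least 6.53-fold lower in +/1013 and at least 6.27-fold lower in 1013/1013 than the WT mean, set against the limit of 3 counts per library. WT replicate 2 held a single Matn1 read, so that this gene was near the limit of detection in WT SSCs as well.

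Hapln1 was at 136, 23.0 and 41.3 CPM in WT, 10.9, 34.3 and 10.4 CPM in +/1013, and 0.226 and 39.8 CPM in 1013/1013 SSCs. Cnmd was at 526, 69.1 and 60.7 CPM, 9.45, 121 and 8.99 CPM, and 23.1 and 52.2 CPM, and Ucma at 27.0, 6.05 and 6.11 CPM, 2.12, 12.7 and 1.46 CPM, and 3.32 and 8.02 CPM. In all 3, WT replicate 1 was the highest SSC library and 1 or more mutant libraries lay within the range of the WT group. Of these 3 genes, Cnmd in 1013/1013 SSCs was without overlap. The direction of Ucma rested on WT replicate 1, without which it was fitted at 0.16 in +/1013 and 0.22 in 1013/1013 on the log2 scale.

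Among the factors, Sox9 was at 219, 93.9 and 92.8 CPM in WT, 69.1, 90.3 and 52.5 CPM in +/1013, and 50.7 and 134 CPM in 1013/1013 SSCs. Sox5 was at 75.7, 75.1 and 53.4 CPM, 32.6, 36.3 and 42.5 CPM, and 7.78 and 40.7 CPM, and Sox6 at 18.2, 19.2 and 17.3 CPM, 7.90, 11.5 and 7.44 CPM, and 1.36 and 13.6 CPM. For Sox5 and Sox6 every mutant library was below every WT library, and for Sox9 this held in +/1013 only. The log2 fold changes against WT ran from -0.77 to -0.63 in +/1013 and from -1.18 to -0.27 in 1013/1013 for the 3 factors, each under 2 SE. Sox9 in 1013/1013 turned to 0.31 without WT replicate 1 and also without 1013/1013 replicate 1. Comp was at 10859, 11169.9 and 7280.3 CPM in WT, 9697, 15296 and 14613 CPM in +/1013, and 4072 and 22253 CPM in 1013/1013 SSCs. Its 1013/1013 libraries bracketed all other libraries of the cell type, and the log2 fold changes of 0.68 (SE 0.60) and 0.75 (SE 0.66) were close to 1 SE. Without 1013/1013 replicate 2 the latter turned to -1.15.

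Matn1 is left out of the counts in this paragraph, since it passed the filter only through WT SSCs and 1 of its WT libraries was under the detection limit. Of the other 9 members, 5 were lower without overlap in +/1013 SSCs (the 3 factors, Acan and Matn3), where 24% of all genes were, and 5 in 1013/1013 SSCs (Sox5, Sox6, Acan, Matn3 and Cnmd), where 33.1% were. For 3 against 3 libraries the exact permutation test cannot give a p below 0.1, and for 3 against 2 not below 0.2. In +/1013 against WT SSCs, edgeR called 0 members and 0.0736% of all genes, with 2 members (Acan and Matn3) at an unadjusted p under 0.05. DESeq2 called the same 2, and 8.14% of all genes to which it gave an adjusted p. By DESeq2, 0 members were called in 1013/1013 against WT SSCs and 0 between the mutants. Its shares of all genes given an adjusted p were 11.4% and 1.31%. For 1013/1013 against WT SSCs, edgeR had 0 members at an unadjusted p under 0.05, and called 0% of all genes and 0 members. This last count rested on 1 library: without 1013/1013 replicate 2, Sox5, Sox6, Acan and Hapln1 were called lower than in WT from replicate 1 alone, whose spread was assumed to be that of the other groups, and so were 14.8% of all genes in either direction. Between the mutants, 1013/1013 against +/1013, 0 members and 0% of all genes were called, 0 at an unadjusted p under 0.05 and 0 by DESeq2, and without 1013/1013 replicate 2 the count was 2 (Sox5 and Sox6), with 9.17% of all genes.

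SSC libraries of one group also differed from each other. WT replicate 1 was the highest SSC library for 8 of the 10 genes and 1013/1013 replicate 1 the lowest for 7. Hapln1 spread 176-fold and Matn3 136-fold between the 2 homozygous libraries, and Matn3 58.6-fold within +/1013. The pooled within-group SD of log2(CPM + 0.5) was 2.09 for Hapln1, 1.99 for Matn3 and 1.77 for Cnmd, above the 98th percentile of all 17659 genes, and 0.67 for Sox9. The same 5 chondrocyte collagens summed to 790.3 to 5315 CPM in WT SSCs, highest in replicate 1, to 21.7 to 129 CPM in +/1013 and to 11.2 to 99.9 CPM in 1013/1013 SSCs, with Col10a1 at 0 in 3 of the 5 mutant libraries. The osteoblast markers, 8 of 8 detected, summed to 11590.3 to 16663 CPM in WT and to 2282 to 4819 CPM in mutant SSCs. The 4 fibroblast markers, all detected, summed to 1291 to 1660.5 CPM in WT and 1752 to 4513 CPM in mutant SSCs. The leukocyte and erythroid markers, 9 or 10 of 10 detected, summed to 488 to 4302 CPM in WT, 135 to 291 CPM in +/1013 and 749 to 1111 CPM in 1013/1013 SSCs. The WT SSC libraries also had more genes with a count (21449 to 22599, against 15748 to 19227 in the mutants) and more reads on no gene (3.68% to 4.15%, against 1.504% to 2.69%), so genotype and library make-up cannot be told apart. The 5 tendon and ligament markers, all detected, summed to 3927 CPM in 1013/1013 replicate 1 and 9757 CPM in replicate 2, the libraries in which Comp was at 4072 and 22253 CPM, and to 5714 to 13389 CPM in the other 6 SSC libraries. Their part in the level of Comp was not tested.

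Between the cell types, the matrix genes other than Comp were lower in SSCs than in OPCs of the same genotype, and the factors and Comp passed the main edgeR test in no genotype. The labels name no batch, so cell type and any batch cannot be told apart. Ambiguous reads were 1.87% to 2.62% in OPC and 3.28% to 3.93% in SSC libraries, and every OPC library was deeper than every SSC library. In WT, 4 members were called, all lower in SSCs, where 5.86% of all genes were called lower: Acan (log2 fold change -2.98, SE 0.87, adjusted p = 0.041), Matn1 (-7.72, SE 1.48, adjusted p = 0.0072), Matn3 (-5.08, SE 1.52, adjusted p = 0.046) and Ucma (-3.73, SE 0.97, adjusted p = 0.024), by edgeR. Hapln1, at -3.82 (SE 1.28), and Cnmd, at -3.58 (SE 1.21), had adjusted p-values of 0.071 and 0.074 (edgeR), and each was called under 3 of 15 alternatives, DESeq2 among them (21.2% of all genes called). The WT call was the least firm of the 3. Only Matn1 was called without OPC WT replicate 2 (6.68% of all genes called), SSC WT replicate 2 (7.41%) or SSC WT replicate 3 (7.66%). Without OPC WT replicate 1, Matn1 and Ucma were called, with 11.5% of all genes. In +/1013, 6 members were called lower, with 6.02% of all genes, and in 1013/1013 the same 6, with 6.12% of all genes: Acan, Matn1, Matn3, Hapln1, Cnmd and Ucma. Acan had a log2 fold change of -6.58 (SE 1.03) in +/1013 and -6.59 (SE 1.24) in 1013/1013, Matn3 of -9.79 (SE 1.87) and -10.26 (SE 2.31), Hapln1 of -6.03 (SE 1.42) and -6.82 (SE 1.78), Cnmd of -6.01 (SE 1.36) and -7.30 (SE 1.74), and Ucma of -4.79 (SE 1.02) and -5.60 (SE 1.28). Matn1, at 0 in the mutant SSCs, was at least 2417-fold lower in +/1013 and at least 3366-fold lower in 1013/1013 SSCs than in the OPCs of that genotype. Not all 6 calls in 1013/1013 held without SSC 1013/1013 replicate 1, a fit with 1 library in that group. That fit also called a smaller share of all genes than the main fit. Over the alternatives, Acan was called in 14 of 14 and Matn1 in 13 of 13. Matn3 was called in 12 of 13, and Hapln1, Cnmd and Ucma in 13 of 14 each. Over all alternatives the log2 fold changes in 1013/1013 ran from -9.23 to -5.70 for Acan and -16.48 to -9.27 for Matn3. They ran from -13.44 to -5.82 for Hapln1, -8.12 to -6.77 for Cnmd and -6.49 to -5.04 for Ucma.

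Groups that did not overlap gave a like picture. In WT, 5 members (Matn1, Matn3, Hapln1, Cnmd and Ucma) were lower in every SSC than in every OPC library, where 5.23% of all genes were, and 3 (Sox5, Sox6 and Comp) were higher in every one, where 42.8% of all genes were. In +/1013, 7 members were lower without overlap, against 10.4% of all genes, and Comp was higher, against 26.2%. In 1013/1013, 7 were lower, the 6 matrix genes and Sox6, against 15.8% of all genes. The scale matters for the factors. On library-total CPM the mean of Sox9 was 135 CPM in both WT cell types, while the edgeR fit, whose TMM scaling sets log2 fold changes of SSCs against OPCs 0.78 lower in WT, 0.43 lower in +/1013 and 0.39 lower in 1013/1013, gave -0.73 (SE 0.54). Mean Comp was 2.31-fold higher in WT SSCs on CPM and fitted at 0.46 (SE 0.57) on the log2 scale. Sox5 in +/1013 was 1.24-fold higher on CPM and at -0.18 (SE 0.59) in the fit, and thus had no direction that both scales share. In 1013/1013 the factors were fitted at -2.01 (Sox9, SE 0.65), -1.60 (Sox5, SE 0.70) and -1.88 (Sox6, SE 0.87) in SSCs against OPCs, each at an unadjusted p under 0.05 and none called by edgeR. Sox9 lay at the threshold: its adjusted p was 0.057 in 1013/1013 and 0.076 in +/1013 (edgeR), and 7 of 14 alternatives called it lower in 1013/1013 (adjusted p from 0.0058 to 0.36) and 2 of 14 in +/1013 (from 0.017 to 0.21). DESeq2 called Sox9 in both, with 28.5% of all genes in 1013/1013 and 23.2% in +/1013. Sox5 and Sox6 in 1013/1013 were each called under 1 alternative, without SSC 1013/1013 replicate 2. That fit had 1 library in the group and called a larger share of all genes than the main fit.

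**Figure D4:**
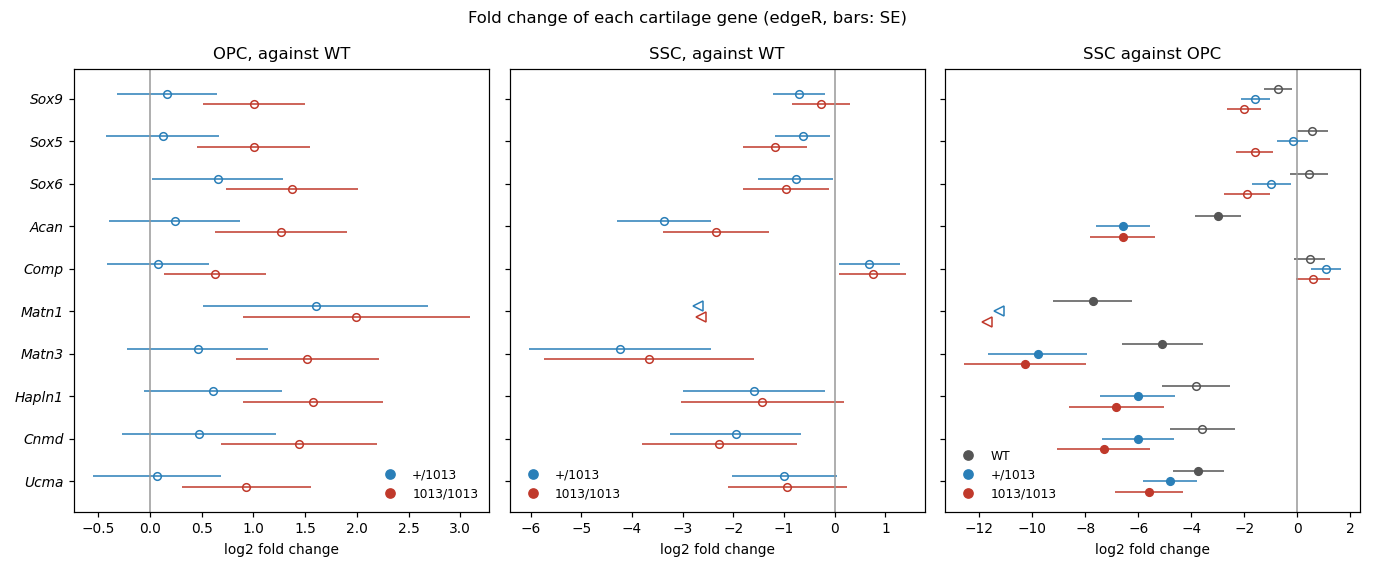
Points are log2 fold changes of the 10 genes and bars are 1 SE (edgeR), in OPCs and in SSCs against WT and in SSCs against OPCs of the same genotype; filled points were called, and triangles pointing left are the bounds for Matn1 where a group is at 0. The OPC panel lies right of 0 for all 10 genes and the SSC panel left of 0 for all but Comp, with no filled point in either; the right panel holds the called genes.

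Whether the effect of a genotype differs between the cell types was tested as an interaction in the fit of all 17 libraries. For +/1013 the fitted difference of effects, SSC minus OPC, was below 0 for 9 of the 10 members, with 0 called by edgeR (0.084% of all genes), 3 at an unadjusted p under 0.05 (Acan, Matn1 and Matn3) and 2 called by DESeq2 (Acan and Matn1, with 2.86% of all genes). For 1013/1013 it was again below 0 for 9 of 10, with 0 called (0.153% of all genes), 4 at an unadjusted p under 0.05 (Sox5, Acan, Matn1 and Matn3) and 2 called by DESeq2 (Acan and Matn1, with 7.48% of all genes). Matn1 enters these tests with all mutant SSC libraries at 0. Acan had differences of -3.60 (SE 1.17, adjusted p = 0.367, edgeR) for +/1013 and -3.61 (SE 1.28, adjusted p = 0.242, edgeR) for 1013/1013. Without SSC 1013/1013 replicate 2 the 1013/1013 count by edgeR was 5 (Sox5, Sox6, Acan, Matn3 and Hapln1), with 8.73% of all genes.

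A list of 44 other cartilage genes gives the surroundings of the members. In the genotype comparisons 0 of them were called by edgeR in either cell type. In OPCs, 33 of the 44 were fitted higher in 1013/1013 than in WT, 4 at an unadjusted p under 0.05, and in SSCs, where 42 were tested, 36 were fitted lower in +/1013 (15 at an unadjusted p under 0.05) and 34 lower in 1013/1013 (8). All 8 cartilage collagens of the list were lower without overlap in both mutant SSC groups, where 24% (+/1013) and 33.1% (1013/1013) of all genes were. Col10a1, among these 8, had no count in most mutant SSC libraries. Whether it passed the filter only through the WT libraries was not tested. Col2a1, the main collagen of cartilage, averaged 1894 ± 2099 CPM (SD, n = 3) over the WT SSC libraries, 69.4 ± 56.5 CPM (n = 3) in +/1013 and 31.0 ± 37.7 CPM (n = 2) in 1013/1013 SSCs, beside 20491 ± 10743, 23867 ± 14701 and 46021 ± 22012 CPM (n = 3 each) in the OPC groups. Between the cell types, 14 of the 44 were called lower and 4 higher in WT SSCs than in OPCs, 26 and 2 in +/1013, and 25 and 2 in 1013/1013. Of all genes, 5.86%, 6.02% and 6.12% were called lower and 5.55%, 6.44% and 6.94% higher in these genotypes.

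The genes lower in SSCs of all 3 genotypes included Col2a1, Col10a1, the collagen of hypertrophic chondrocytes, Col11a1, the parathyroid hormone receptor gene Pth1r, and Papss2, Slc26a2 and Chst11, which serve the sulfation of cartilage proteoglycans. Pth1r was at 1022 ± 93.1 CPM in WT OPCs and 239 ± 128 CPM in WT SSCs (SD, n = 3 each), with a log2 fold change of -2.87 (SE 0.48). Papss2 was at 440.3 ± 218 and 90.9 ± 48.5 CPM and had -3.01 (SE 0.61). Fgfr3 and Runx3 were called lower in the mutant genotypes only, and whether this differs from WT was not shown by the interaction, in which 0 of the 44 were called. Prg4, which encodes lubricin of the joint surface, was at 6414 ± 1032 CPM in WT SSCs and 728 ± 212 CPM in WT OPCs (log2 fold change 2.36, SE 0.56), and Cilp (2.40, SE 0.61), Vcan (3.77, SE 0.59) and Pthlh (4.19, SE 0.78) were also called higher in WT. Vcan and Pthlh were called higher in all 3 genotypes. Chad, a leucine-rich repeat protein of cartilage, and Ihh, the growth plate hedgehog ligand, were called in no comparison. Chad was at 7289 ± 2718 CPM in WT SSCs and 4877 ± 2602 CPM in WT OPCs, and Ihh at 0.954 ± 0.902 and 10.7 ± 4.24 CPM.

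The genes whose levels ran most like those of Sox9 and Acan are given as a description, since the libraries share genotype and cell content. Over the 9 OPC libraries, log2(CPM + 0.5) of Acan had the highest Pearson r among 16207 genes with Susd5 (r = 0.992), Papss2 (0.989), Col9a3 (0.987), Col9a1 (0.985) and Mcoln2 (0.985). For Sox9 these were 2810001G20Rik (0.993), Fxyd2 (0.993), Rcn2 (0.986), Trpv4 (0.984) and Uap1 (0.983). Over the 8 SSC libraries, Acan ran with Map3k19 (0.993), Col11a2 (0.988), Wwp2 (0.979), the member Matn3 (0.974) and Tmf1 (0.968), and Sox9 with Gm28609 (0.979), Gjb2 (0.963), Hba-a2 (0.960), Scrg1 (0.957) and Wfikkn2 (0.954). Gm28609, Gjb2 and Wfikkn2 had means of 0.232, 0.758 and 0.410 CPM in SSCs, so their likeness to Sox9 rests on few counts.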

How the data were processed

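RNA of sorted OPC and SSC pools was measured by sequencing in 17 libraries. From 400 to 1000 pg of RNA, cDNA was prepared by the authors (SMART-Seq v4, 12 PCR cycles) and made into Nextera XT libraries for paired-end sequencing. They ran FastQC, dropped reads under 50 bases, aligned the rest with STAR to mm10 and counted reads per gene with HTSeq. Versions, annotation release and HTSeq settings are not given in the sources used here. The values deposited by the authors are raw counts per gene, not normalized. PCR copies are counted as reads, so counts are not molecules. Of 55335 Ensembl genes, 55154 matched a symbol in GENCODE M21 without version numbers, and the unmatched ones took 0.00197% or less of any library. The special rows of HTSeq, such as 1.15% to 4.15% of reads on no gene, stayed out of library sizes and tests.

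The 3 genotypes of a cell type entered one edgeR 4.0.16 quasi-likelihood fit (R 4.3.3, legacy = TRUE, filterByExpr, TMM, no covariate), over 16207 genes in OPCs and 17659 in SSCs. SSCs were compared with OPCs, and effects between cell types, in one fit that held all 17 libraries and 20238 genes. A call needed p under 0.05 after Benjamini-Hochberg adjustment over all genes tested, and 1.5-fold or more. The SE is the log2 fold change divided by the root of F. No library was left out. Libraries were grouped by the labels' cell type and genotype, and are separate pools, so p-values measure the spread between pools. No 2 libraries of a group held the same counts. The fits were tested on simulated counts. Limits of detection cover counting error only. The members, the list of 44 other cartilage genes and the markers were chosen with earlier results of these data known. Named singly are the members, genes of the other list that were set for naming with it or called in a comparison, and the 5 genes most like Sox9 and Acan. DESeq2 1.42.0, edgeR's other settings, each library left out in turn and a replicate block were alternatives. The replicate numbers were not taken as pairs, and whether OPC and SSC libraries of one number share mice was not checked. Sequences are RefSeq's. The other assays of the study are not analysed here.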

Additional observations from a re-analysis of the deposited data

How the results depend on the processing

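The alternatives were DESeq2's Wald test, edgeR with legacy = FALSE, other normalizations and filters, no fold threshold, other sets of libraries in the fit, each library left out and, added after the data were seen, the 2 OPC libraries of highest leukocyte sum left out together. The 3 comparisons within OPCs gave 0 members called under every alternative run. DESeq2 called 2 members in +/1013 against WT SSCs (8.14% of all genes) and 2 in each interaction, where edgeR called 0. In the interactions it called 2.86% (+/1013) and 7.48% (1013/1013) of all genes. Of the 2 members called in each interaction, Matn1 was at 0 in all mutant SSC libraries. With each library left out in turn, the members called ranged from 0 to 4 in 1013/1013 against WT SSCs, from 0 to 2 in 1013/1013 against +/1013 SSCs, from 1 to 4 in SSCs against OPCs of WT, from 2 to 9 in those of 1013/1013, and from 0 to 5 in the 1013/1013 interaction. The highest counts in the 1013/1013 SSC comparisons came without 1013/1013 replicate 2. The lowest in SSCs against OPCs of 1013/1013 came without replicate 1. In SSCs against OPCs of 1013/1013, the share of all genes called also rose without replicate 2 and fell without replicate 1. These changes in count are thus not particular to the members. A lone 1013/1013 SSC library was assumed to vary like the other groups.

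The replicate block gave 2 members called, Matn1 and Ucma, in SSCs against OPCs of WT, with 10.1% of all genes called. It turned the fold changes of Comp (-0.012) and Ucma (-0.014) in +/1013 against WT OPCs, which were not called. It moved no other count of members called by over 1.5 times. Same-numbered libraries had correlations of their deviations from -0.37 to 0.40 in OPCs and from -0.15 to 0.12 in SSCs. Libraries of different numbers had -0.46 to 0.49 and -0.12 to 0.19, so the numbers were not taken as pairs. In OPCs, replicate 1 pairs had 0.38, 0.40 and 0.17, replicate 2 pairs 0.073, -0.37 and 0.14, and replicate 3 pairs 0.12, -0.20 and 0.21. OPC replicate 1 also had the highest sum of the 4 fibroblast markers in each genotype: 304 CPM in WT, 372 CPM in +/1013 and 168 CPM in 1013/1013. Other OPC libraries had 33.8 to 78.1 CPM. Whether replicate 1 libraries share a batch was not tested. Same-numbered OPC and SSC libraries were not compared in this way.

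Of the members' log2 fold changes over the alternatives, 990 kept direction and side of the threshold, 23 passed it anew, 22 fell short of it and 30 changed sign, all 30 in members that were not called. No other normalization or filter changed a sign. In +/1013 against WT OPCs, leaving out each library in turn gave ranges of -0.10 to 0.40 for Sox9, -0.51 to 0.44 for Sox5, -0.26 to 0.61 for Acan, -0.39 to 0.36 for Comp, -0.10 to 1.01 for Matn3, -0.043 to 1.04 for Hapln1, -0.30 to 0.86 for Cnmd and -0.37 to 0.58 for Ucma, lowest without +/1013 replicate 3. Without the 2 libraries of high leukocyte sum, Sox9 was at -0.087, Sox5 at -0.11, Acan at -0.13, Comp at -0.15 and Ucma at -0.28. In SSCs the ranges were -2.71 to 0.16 for Ucma in +/1013, and -1.31 to 0.31 for Sox9, -1.88 to 0.22 for Ucma and -1.15 to 1.53 for Comp in 1013/1013 against WT. In SSCs against OPCs they were -0.014 to 1.07 for Sox6 in WT, -0.51 to 0.44 for Sox5 in +/1013 and -1.26 to 1.37 for Comp in 1013/1013, and Sox6 in WT was at -0.013 without both libraries of high leukocyte sum. Beyond the libraries left out, the cause was not tested.

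Log2 fold changes on library-total CPM lay 0.14 above the fit in 1013/1013 against WT OPCs, and in SSCs 0.24 below it in +/1013 and 0.27 below it in 1013/1013. Matn1 in SSCs was at 0.726 CPM or less and at 0 in every mutant library, and whether depth limited it was not tested.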
